A study of Mus musculus with 4 samples.

Results

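The receptor NKG2D, its adaptor and its ligands, 5 of the 34097 genes in the deposited matrices, were followed across cell classes of transplanted mouse hearts: Klrk1, which encodes the activating receptor NKG2D, Hcst, which encodes its signalling adaptor DAP10, and Raet1e, Ulbp1 and H60b, which encode ligands of the receptor. They were chosen by symbol, after an earlier clustering of the same cells had shown Klrk1 in macrophages of allogeneic grafts near its level in T cells. The macrophage contrast of these 5 genes between grafts is therefore given as a description without a test. Cells came from hearts on day 5 after transplantation and were sequenced as single cells from droplets, in 3 allogeneic libraries (replicates 1, 2 and 3), from grafts between genetically different mice, and 1 isogeneic library (replicate 2), from a graft between genetically identical mice. The labels give no strain, sex, age, drug or cell sort and do not say whether replicates were separate animals, so a p-value here reflects no more than how these libraries scatter, which may be technical in origin. The grafts of all 4 libraries were digested with enzymes to single cells.

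NKG2D is a lectin-like receptor of natural killer (NK) cells and of activated CD8 T cells, and in mice it has also been described on activated macrophages. It has no signalling motif of its own: DAP10 recruits phosphoinositide 3-kinase and Grb2, and in mice a short form of the receptor can also pair with the adaptor DAP12, the product of Tyrobp. Its ligands are relatives of major histocompatibility proteins, the RAE-1 family (Raet1e and Raet1d here), MULT1 (Ulbp1) and the H60 proteins, which are known to appear on stressed, infected, dividing or transformed cells. Recognition of such a ligand can trigger killing by NK cells and lend costimulation to CD8 T cells, and the pathway has been studied in the rejection of mouse heart grafts.

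Klrk1 lies in the cluster of NK lectin receptor genes, at chr6:129610323-129623864 on the minus strand of mm10, with no other annotated gene over it. Its promoter is shown because the receptor gene carries the main result and because Runx3, a transcription factor of cytotoxic T cells and NK cells, had the profile most like it, as described at the end. The 250 bases before its start, chr6:129623865-129624114 (minus strand, RefSeq, GRCm38.p6), are given from 5′ to 3′, with a match to the RUNX motif TGTGGT in capitals.
Klrk1: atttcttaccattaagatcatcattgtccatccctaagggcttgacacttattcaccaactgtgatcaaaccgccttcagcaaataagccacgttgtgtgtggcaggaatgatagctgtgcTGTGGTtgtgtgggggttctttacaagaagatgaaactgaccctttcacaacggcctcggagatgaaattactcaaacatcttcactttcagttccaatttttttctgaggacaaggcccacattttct
The match stood 129 to 124 bases before the start. On both strands, 3 motifs were searched, with no overlaps between matches, and the RUNX motif only after Runx3 had been seen: TGTGGT was found in 14.0% of 32851 promoters of that length, the interferon-gamma element TTCNNNGAA in 7.02% and the interferon-stimulated response element in 2.98%. Neither interferon element was in the Klrk1 window, and none of the 3 motifs was in the windows of Hcst, Ulbp1 or Raet1e. A match is a description of the letters only.

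The ligand genes share sequence, and this limits their counts. Raet1e is annotated at chr10:22158569-22374139 on the plus strand, a span that contains both H60b (chr10:22158586-22288849) and Raet1d (chr10:22360552-22374139) on the same strand. Raet1e shared 363 exon bases with Raet1d, which is 16.8% of its own exon bases and 25.2% of those of Raet1d, and 133 exon bases with H60b, which is 6.16% of its own and 11.0% of those of H60b. Between the promoter at a later start of Raet1e, chr10:22173249-22173496, and that of Raet1d, chr10:22361644-22361891 (both plus strand, RefSeq, GRCm38.p6), 245 of 248 aligned bases were identical (98.8%). Both are shown to make the likeness of the copies visible, with the 3 differing bases in capitals.
Raet1e: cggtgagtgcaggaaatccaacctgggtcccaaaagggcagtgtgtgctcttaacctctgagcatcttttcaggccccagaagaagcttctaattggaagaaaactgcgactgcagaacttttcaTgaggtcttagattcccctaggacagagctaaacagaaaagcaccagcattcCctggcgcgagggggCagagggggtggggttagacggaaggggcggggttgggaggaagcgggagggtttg
Raet1d: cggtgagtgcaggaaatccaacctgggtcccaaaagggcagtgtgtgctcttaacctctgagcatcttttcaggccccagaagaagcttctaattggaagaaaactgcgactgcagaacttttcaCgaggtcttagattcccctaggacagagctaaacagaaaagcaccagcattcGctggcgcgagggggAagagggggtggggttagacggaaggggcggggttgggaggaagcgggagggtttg
The libraries were made with a 3' kit, so the last 300 bases of the transcripts were compared as well. There Raet1e and Raet1d were 52% to 100% identical, depending on the transcripts. Raet1e and H60b, at 51.7% to 54.7%, were no more alike there than Raet1e and Ulbp1, at 49.7% to 55.7%. Counts of Raet1e and Raet1d are therefore uncertain, since reads from shared stretches cannot be assigned to 1 gene. For H60b this holds only for reads from its 133 shared bases. Hcst (chr7:30417712-30419854, minus strand) had no overlapping annotated gene, and Ulbp1 (chr10:7440362-7473638, minus strand) had only a pseudogene on the opposite strand.

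The libraries held 51054446, 63434265 and 51463909 unique molecular identifiers (UMIs, counted molecules) for allogeneic replicates 1, 2 and 3 and 100038951 for the isogeneic library, and 4737, 7663, 5980 and 10341 cells were kept. Between 14 and 31 cell barcodes were shared by any pair of libraries. Classes were gated on marker UMIs, and levels are a gene's share of the UMIs that a class held in a library, times 1000000 (CPM). The allogeneic libraries held 358 to 1357 T cells and 71 to 112 NK cells, against 33 T cells and 7 NK cells in the isogeneic library, so CD8 T cells (496, 718 and 106, against 1) and NK cells could not be compared between grafts. Allogeneic replicate 3 stood apart: it held 1229 fibroblasts, against 21 and 73 in replicates 1 and 2, and its macrophages carried few T cell transcripts. Ms4a7, a macrophage gene not used for gating, read 258, 248 and 356 CPM in allogeneic macrophages and 1179 CPM in isogeneic ones. It read 101, 62.6 and 21.04 CPM in allogeneic monocytes, against 297 CPM in isogeneic ones, and at most 24.5 CPM in T and NK cells. Apoe, another macrophage gene outside the gates, read 697, 1124 and 4782 CPM in allogeneic macrophages and 13843 CPM in isogeneic ones, so the macrophage classes of the grafts were unlike in both genes.

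Within allografts, Klrk1 was highest in NK cells, at 525, 441 and 310 CPM in replicates 1, 2 and 3 (mean 425 ± 108, SD, n = 3). Dendritic cells followed at 179, 198 and 216 CPM (198 ± 18.3), and CD8 T cells at 222, 215 and 122 CPM (187 ± 55.6). The NK range lay above both, and the ranges of dendritic cells and CD8 T cells overlapped. T cells with neither or both of the CD4 and CD8 gates read 164, 100 and 101 CPM. Monocytes read 80.4, 66.1 and 107 CPM (84.6 ± 20.9) and macrophages 73.2, 62.3 and 97.6 CPM (77.7 ± 18.1), overlapping each other. CD4 T cells were low, at 33.8, 17.0 and 15.7 CPM (22.2 ± 10.1), below every macrophage value. Endothelial cells (8.93, 4.45 and 2.83 CPM) and fibroblasts (0, 2.37 and 1.94 CPM) were lowest among the 11 classes ordered. Neutrophils are not placed, since 9 of their 13 Klrk1 UMIs came from replicate 1.

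**Figure D1:**
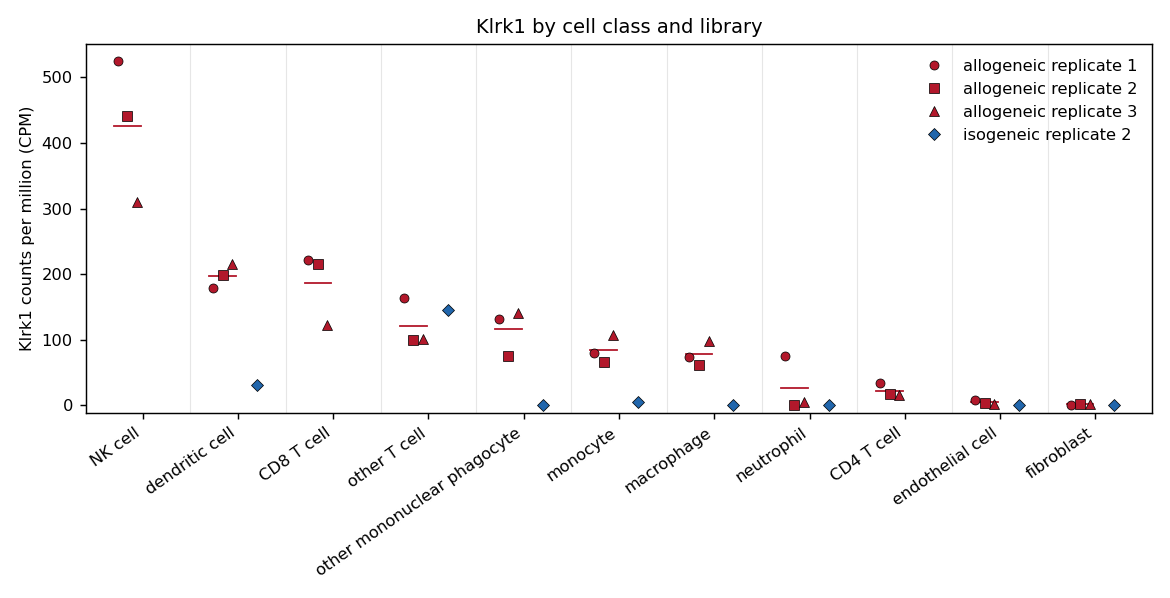
Klrk1 level (CPM, vertical axis) in each cell class, with 1 red point per allogeneic library, a red line at their mean and a blue diamond for the isogeneic library where it held at least 20 cells of the class. NK cells lie highest, dendritic and CD8 T cells next, macrophages and monocytes of allografts between 62.3 and 107 CPM, and the isogeneic diamonds of these 2 classes near 0.

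Macrophages of allografts carried Klrk1 and those of the isograft nearly none. The isogeneic macrophages had 15 Klrk1 UMIs in 1953 cells, 1.31 CPM (exact Poisson 95% interval 0.734 to 2.16, counting error only), so that the allogeneic mean was 59.2 times as high. Every allogeneic library lay far above that interval. Isogeneic monocytes had 10 UMIs, 5.82 CPM, and the allogeneic mean was 14.5 times as high; this contrast too is a description, since those cells overlap with the ones clustered earlier. Mononuclear phagocytes in neither gate read 131, 74.9 and 142 CPM in allografts, against 0 UMIs in 359 isogeneic cells, which makes the allogeneic mean at least 70.0-fold higher against a floor of 3 counts in that isogeneic class.

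The share of cells with a Klrk1 UMI was set beside endothelial cells, a class that should lack the receptor, after thinning each cell to 3000 UMIs. Among macrophages 18.9%, 17.2% and 24.7% had a Klrk1 UMI in the allogeneic libraries (44.0%, 35.9% and 49.8% before thinning), against 0.683% in the isogeneic one (0.768% before). The Wilson 95% intervals of the allogeneic shares ran from 15.3% to 29.3%. Among endothelial cells the thinned shares were 2.34%, 1.08% and 0%, against 0.204%, from median depths of 6771, 4615 and 2243 UMIs, against 3048. Macrophage medians were 10293, 8114 and 8385 UMIs, against 4660. Thinning left out 275, 372 and 42 macrophages, against 489, and 47, 182 and 390 endothelial cells, against 481. The endothelial 0% of replicate 3 rests on 197 of 587 cells, with a Wilson upper bound of 1.91%. Macrophages with 3 or more Klrk1 UMIs numbered 104, 57 and 38 in the allogeneic libraries, with up to 10 UMIs in a single cell, and 0 in the isogeneic one, where no cell had more than 1.

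The Klrk1 of allograft macrophages was next set against transcripts of T cells. Trbc2, a constant region of the T cell receptor, read 29.0, 27.7 and 3.85 CPM in allogeneic macrophages and 0.437 CPM in isogeneic ones, and Cd3e, a T cell receptor subunit, 6.37, 4.34 and 1.80 CPM, against 0. Both were thus present in allograft macrophages, in low amounts, and lowest in replicate 3, where Klrk1 was highest. Per Trbc2 UMI there were 2.52, 2.25 and 25.3 Klrk1 UMIs in macrophages, against 0.148, 0.135 and 0.104 in CD8 T cells of the same libraries, which is 17.1, 16.6 and 243 times as many. If all Trbc2 in macrophages had come with Klrk1 at the ratio of CD8 T cells, and all of the NK receptor Ncr1 with Klrk1 at the ratio of NK cells, these would have carried 4.95, 4.28 and 0.775 CPM, or 6.77%, 6.87% and 0.794% of the Klrk1 measured there. In endothelial cells the same sum came to 56.6%, 89.6% and 18.2% of Klrk1, on 16, 16 and 6 UMIs.

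**Figure D2:**
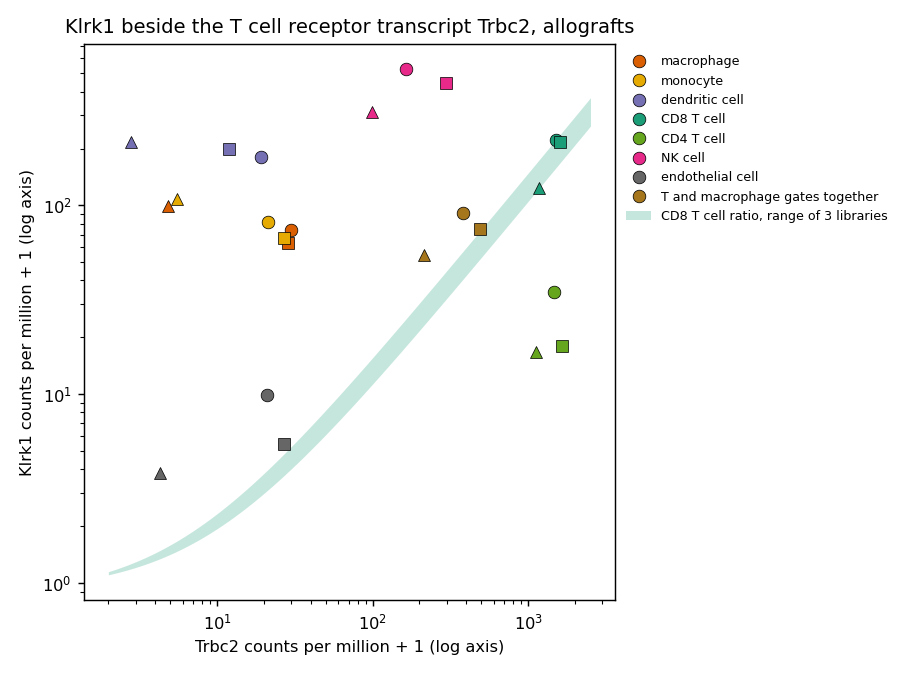
Klrk1 (vertical) against Trbc2 (horizontal), both as CPM plus 1 on log axes, per cell class in the 3 allogeneic libraries (circle, square and triangle for replicates 1, 2 and 3); the green band spans the Klrk1 to Trbc2 ratios of CD8 T cells. Macrophages, monocytes and dendritic cells lie far above the band at low Trbc2, while cells in both the T and macrophage gates lie nearer to it, at 1.12 to 2.39 times the CD8 T cell ratio of their library.

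Macrophages without T cell transcripts also carried Klrk1. All 20 genes of a T and NK transcript list were found in allogeneic macrophages, summing to 1999, 2352 and 1936 CPM, against 88.4 CPM in isogeneic ones, where Cd3e, Trbc1, Cd8a and Cd8b1 were at 0. Without Ccl5, a chemokine, the sums were 229, 204 and 41.9 CPM, against 11.5. Of the 20, 19 were at 37.2 CPM or less in each allogeneic library's macrophages, while Ccl5 reached 1770, 2148 and 1894 CPM, against 77.0 in the isogeneic ones. Allogeneic macrophages with 0 UMIs of the whole list were few and shallow (47, 88 and 87 cells, median 1813, 2277 and 4907 UMIs) and read 81.9, 57.1 and 70.5 CPM of Klrk1, against 0.745 CPM in 1665 such isogeneic cells. Leaving out Ccl5, a choice made after its level had been seen, gave 263, 489 and 305 macrophages with 0 UMIs of the other 19 transcripts, at 78.5, 63.9 and 96.1 CPM, against 1.32 CPM in 1845 isogeneic cells. Each of these was within 10 CPM of the level in all macrophages of its library, except 70.5 CPM in replicate 3. The values for the whole list are imprecise, on 13, 17 and 37 Klrk1 UMIs. Their Poisson 95% intervals were 43.6 to 140, 33.3 to 91.4 and 49.7 to 97.2 CPM. Macrophages with 0 UMIs of the other 19 transcripts held 15.3%, 19.6% and 66.3% of the Klrk1 UMIs of allogeneic macrophages. The rest lay in macrophages with at least 1 such UMI, which were most of the Klrk1 in replicates 1 and 2. The transcripts other than Ccl5 summed to 171, 180 and 46.7 CPM in macrophages with a Klrk1 UMI, against 317, 224 and 34.8 CPM in those without, so that replicates 1 and 2 had fewer T and NK transcripts beside Klrk1 and replicate 3 slightly more. This split also sorts cells by depth: those with a Klrk1 UMI had a median of 13991, 10481 and 11265.5 UMIs, against 5394, 6274 and 6236.5 UMIs in those without.

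Doublets were next set beside this. Cells that passed both the T and the macrophage gate, which were in neither class, read 90.1, 74.1 and 53.4 CPM of Klrk1 with 0.238, 0.151 and 0.249 Klrk1 UMIs per Trbc2 UMI, which is 1.62, 1.12 and 2.39 times the ratio of CD8 T cells in the same library. Macrophage-gated cells among the removed doublets read 137, 80.8 and 54.4 CPM, at 0.250, 0.161 and 0.747 Klrk1 UMIs per Trbc2 UMI. The ratio in the macrophages kept was above all of these in each library. The gates set part of that order, so it cannot decide on doublets. Macrophages with at least 2 Cd3 UMIs and a T cell receptor UMI left the class, which lowers the Trbc2 of those kept. Cells in both gates hold such UMIs by definition. Barcodes below 500 UMIs or 300 genes gave 32 Klrk1 and 97 Trbc2 UMIs in 1101 barcodes of replicate 1, 0.330 per Trbc2 UMI. Each other library gave at most 1 Klrk1 UMI there. In replicate 1 these barcodes read 68.3 CPM of Klrk1 (Poisson interval 46.7 to 96.4), near its kept macrophages at 73.2 CPM. Their Trbc2, at 207 CPM, lay above the 29.0 CPM of those macrophages. Median depths were 406 UMIs in replicate 1, and 639, 786.5 and 861 UMIs in allogeneic replicates 2 and 3 and the isogeneic library. Whether these barcodes hold free RNA or damaged cells was not tested. Free RNA from dendritic cells, or from myeloid cells themselves, was not tested.

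Monocytes and dendritic cells likewise had more Klrk1 UMIs per Trbc2 UMI than CD8 T cells. Dendritic cells had 9.83 and 18 in replicates 1 and 2, and 119 Klrk1 UMIs beside 1 Trbc2 UMI in replicate 3. Monocytes had 4, 2.56 and 23.6, and the sum carried at the ratios of CD8 T and NK cells was 4.40%, 5.91% and 0.736% of their Klrk1. Monocytes and dendritic cells are set beside macrophages here without a test, since the macrophage values led to the choice of genes. The log2 change of Klrk1 was 0.08 in monocytes against macrophages of the allografts and 1.16 in dendritic cells against macrophages, on 38, 30 and 59 dendritic cells, and each was positive in 3 of 3 libraries. These classes share free RNA and library.

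Dendritic cells of allografts read 179, 198 and 216 CPM of Klrk1, against 31.0 CPM in those of the isograft (7 UMIs in 39 cells, interval 12.5 to 63.8). The groups did not overlap, and the log2 change was 2.50 ± 0.45 SE (edgeR quasi-likelihood test, adjusted p = 0.0630, 3 against 1), short of the 0.05 threshold, which 0.488% of 6973 genes passed. Without replicate 1, 2 or 3 the adjusted p was 0.00247, 0.0385 and 0.0166, by DESeq2 it was 0.0454 and with no expression filter 0.000103, so that the call depends on the setting. After thinning, 37.8%, 33.3% and 39.1% of allogeneic dendritic cells had a Klrk1 UMI, against 12.1% of isogeneic ones. The class differed in make-up between grafts, and its part in the difference was not tested. Cells with at least 2 of Ccr7, Fscn1, Ccl22 and Cacnb3, genes of migrating dendritic cells, numbered 8, 9 and 21 in allografts and read 274, 219 and 179 CPM, against 176 CPM on 4 UMIs in 6 isogeneic cells. Of the others, those with Xcr1 or Clec9a, markers of the cross-presenting subset, numbered 25, 14 and 24 and read 159, 180 and 245 CPM, against 23.3 CPM on 2 UMIs in 12 isogeneic cells. Of the remaining cells, those with Cd209a, a lectin gene, were 1, 2 and 3 cells in allografts (424, 229 and 125 CPM), against 17 of the 39 isogeneic cells (10.2 CPM on 1 UMI). The Cd209a cells were thus the largest of these subsets in the isograft and the smallest in each allograft, and in migrating cells the isogeneic value lay just below the lowest allogeneic one.

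Among lymphocytes, Klrk1 separated CD8 from CD4 T cells. It was higher in CD8 T cells by 3.20 ± 0.16 on the log2 scale (edgeR, library as block, adjusted p = 1.03e-08), in 3 of 3 libraries, in a comparison where 21.9% of 9896 genes passed. NK cells exceeded CD8 T cells by 1.08 ± 0.16 (adjusted p = 0.000519, 3 of 3 libraries; 21.6% of 9196 genes passed). Thinned shares with a Klrk1 UMI were 72.3%, 75.3% and 64.5% in NK cells, 49.0%, 46.1% and 26.3% in CD8 T cells and 7.91%, 3.31% and 6.85% in CD4 T cells. In all T cells together, Klrk1 did not differ past the threshold between allografts (186, 156 and 86.3 CPM) and the isograft (134 CPM on 8 UMIs in 33 cells), with a log2 change of 0.49 ± 0.70 (edgeR adjusted p = 0.813). There the edgeR scaling set the median log2 change of all 12657 genes at 0.95, against 0.24 by DESeq2, so T cell changes are to be read against that shift. No gene passed in that comparison (0% called; 1472 had an unadjusted p under 0.05, and DESeq2 called 90).

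The adaptor Hcst was higher in T cells, NK cells and neutrophils than in the myeloid classes that carried Klrk1. NK cells had 245, 285 and 162 CPM in allografts, CD4 T cells 111, 137 and 121 CPM, CD8 T cells 85.3, 88.3 and 125 CPM and neutrophils 108, 156 and 131 CPM. Macrophages had 32.5, 30.1 and 47.5 CPM, monocytes 25.3, 26.4 and 31.0 CPM, and dendritic cells 16.7, 13.8 and 7.25 CPM. The ranges of NK, T cells and neutrophils all lay above those of macrophages, monocytes and dendritic cells. Hcst was higher in NK than in CD8 T cells by 1.08 ± 0.24 on the log2 scale (edgeR adjusted p = 0.00800). That call was lost without replicate 2 (adjusted p = 0.157) and without the library block (0.0627). CD8 T cells had less Hcst than CD4 T cells in replicates 1 and 2 and more in replicate 3 (log2 change -0.33 ± 0.13, adjusted p = 0.0807, and -0.50 without replicate 3, adjusted p = 1.43e-05).

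Dendritic cells, the myeloid class with the most Klrk1, had the least Hcst, lower than macrophages by -1.72 ± 0.35 on the log2 scale (edgeR with library as block, adjusted p = 0.00298, lower in 3 of 3 libraries), in a comparison where 28.7% of 10603 genes passed. Monocytes were below macrophages by -0.40 ± 0.11 (adjusted p = 0.0344), in a comparison where 17.4% of 12553 genes passed. That call was lost by DESeq2 (0.158), without the block (0.372), without replicate 1 (0.162) and without replicate 2 (0.0618).

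Between grafts, Hcst values of myeloid cells lay lower in allografts, short of the threshold wherever tested. Allogeneic macrophages at 32.5, 30.1 and 47.5 CPM were all below isogeneic ones at 51.9 CPM (log2 change -0.52, given without a test). Monocytes at 25.3, 26.4 and 31.0 CPM were below 43.6 CPM (-0.77 ± 0.21, edgeR adjusted p = 0.137, and 0.00989 without replicate 3), where 2.07% of 12498 genes passed. Dendritic cells had 11, 5 and 4 Hcst UMIs in allografts and 6 in the isograft (-1.22 ± 0.91, adjusted p = 0.636). Neutrophils read 108, 156 and 131 CPM in allografts, against 172 CPM (-0.11 ± 0.59, adjusted p = 0.985), where 3.75% of 4209 genes passed. In all T cells Hcst was 96.0, 107 and 138 CPM, against 386 CPM on 23 UMIs (-1.36 ± 0.37, adjusted p = 0.306, but 0.0110 without replicate 3 and 0.0402 by DESeq2). Endothelial cells stood the other way, with 9.48, 5.01 and 3.77 CPM in allografts and 1.39 CPM in the isograft (2.13 ± 0.84, adjusted p = 0.218), where 4.24% of 12154 genes passed and Trbc2 read 20.1, 25.9 and 3.30 CPM, against 0.232. The part of lymphocyte RNA in that difference was not tested. Fibroblasts leaned the same way, with 0, 3.55 and 2.02 CPM of Hcst in allografts (0, 3 and 26 UMIs) and 0.311 CPM in the isograft (log2 change 2.70 ± 1.24, adjusted p = 0.453).

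**Figure D3:**
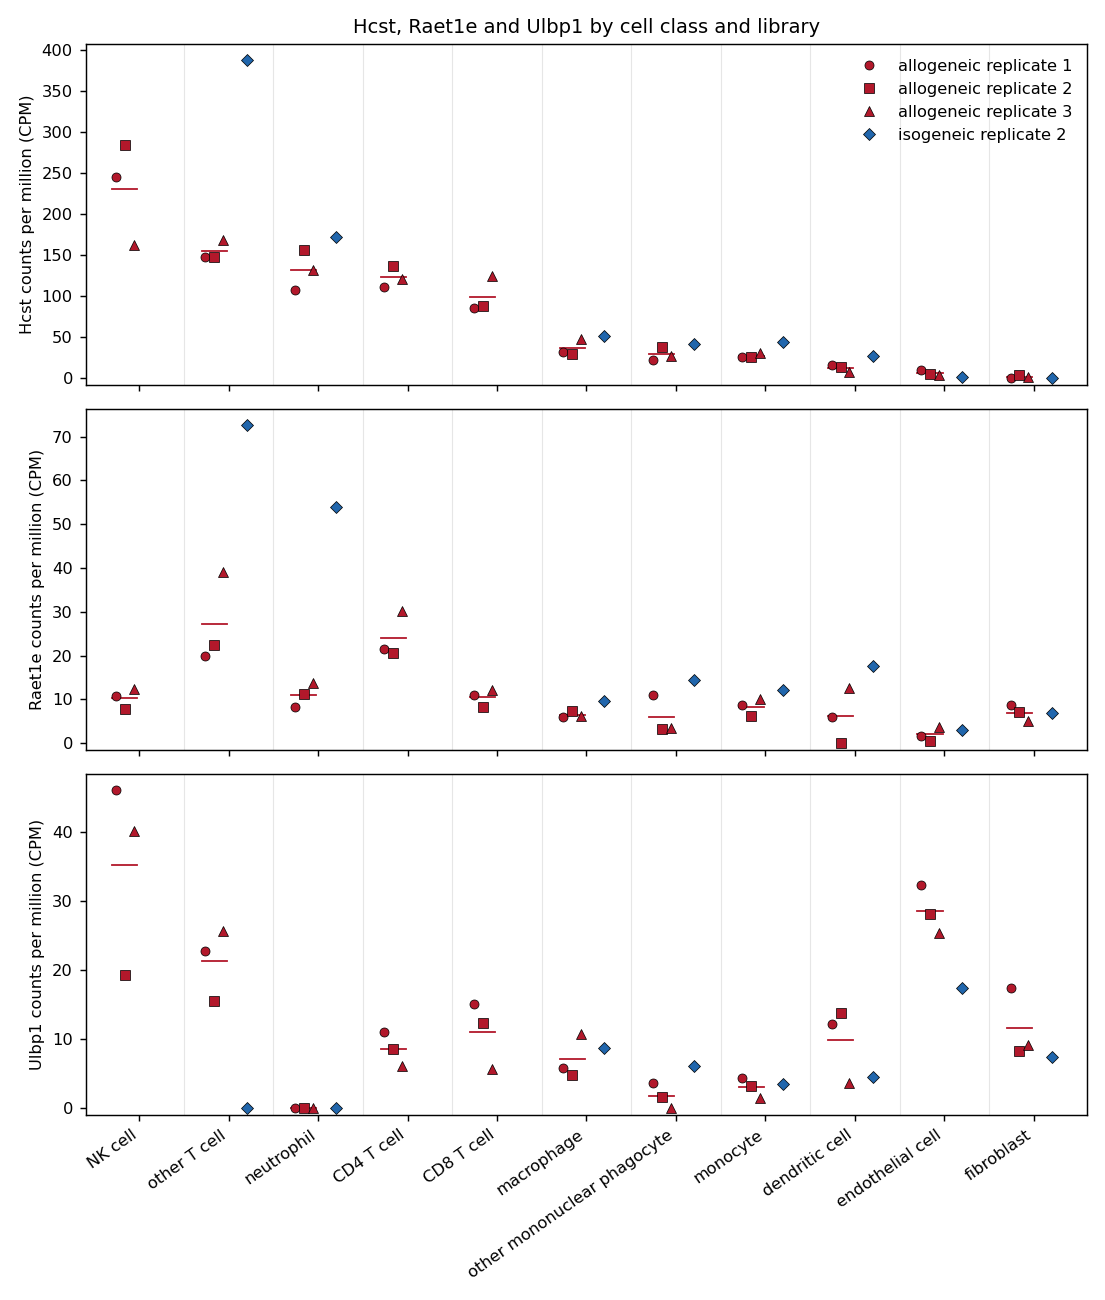
Hcst, Raet1e and Ulbp1 levels (CPM, vertical axes) in each cell class, with 1 red point per allogeneic library, a red line at their mean and a blue diamond for the isogeneic library where it held at least 20 cells. Hcst is high in T cells, NK cells and neutrophils, Raet1e in CD4 and other T cells and Ulbp1 in NK, endothelial and other T cells.

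Ligand transcripts were much scarcer. Ulbp1 was highest in NK cells, at 46.2, 19.4 and 40.2 CPM (17, 10 and 46 UMIs), and in endothelial cells, at 32.4, 28.1 and 25.4 CPM. T cells with neither or both of the CD4 and CD8 gates came next, at 15.6 to 25.7 CPM, a range that overlapped with both. NK cells exceeded CD8 T cells by 1.496 ± 0.375 on the log2 scale (edgeR adjusted p = 0.0137, 3 of 3 libraries), a call lost without replicate 1 (0.0681). All 3 allogeneic endothelial values stood above the isogeneic 17.4 CPM, a log2 change of 0.77 ± 0.30 that did not pass (adjusted p = 0.209, and 0.0408 without replicate 3). Macrophages had 5.85, 4.80 and 10.8 CPM in allografts, against 8.75 CPM, overlapping, and monocytes 4.30, 3.22 and 1.52 CPM, against 3.49 CPM. No Ulbp1 UMI was found in the 56, 90 and 350 allogeneic or the 299 isogeneic neutrophils, which allows a level of up to 24.9, 16.7, 3.72 and 7.36 CPM (3 counts per library).

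Raet1e was highest, among the classes ordered in allografts, in T cells with neither or both of the CD4 and CD8 gates, at 19.9, 22.5 and 39.0 CPM, and in CD4 T cells, whose range overlapped, within the doubt set by its shared exons. CD4 T cells had 21.4, 20.6 and 30.2 CPM and CD8 T cells 11.1, 8.29 and 12.2 CPM in allografts, lower in CD8 T cells by -1.12 ± 0.20 (edgeR adjusted p = 0.00133, 3 of 3 libraries), a call lost without replicate 2 (0.0579) and without the block (0.0845). The CD8 T cells overlapped with neutrophils. B cells are not placed in that order, on 6 Raet1e UMIs in allografts, but they read 112 CPM in the isograft on 9 UMIs in 30 cells, against 67.1 CPM on 4 UMIs in its T cells. Neutrophils read 8.30, 11.1 and 13.6 CPM in allografts, against 54.0 CPM on 22 UMIs in the isograft (-1.84 ± 0.97, adjusted p = 0.461). Allogeneic macrophages (5.998, 7.45 and 6.17 CPM) and monocytes (8.75, 6.20 and 9.98 CPM) all lay below their isogeneic counterparts at 9.53 and 12.2 CPM, by -0.54 (no test) and -0.67 ± 0.39 (adjusted p = 0.389). Raet1d, its near copy, was almost absent from T and NK cells, at 1, 2 and 1 UMIs in the allogeneic libraries. It read 6.07, 6.998 and 2.83 CPM in allogeneic macrophages, against 16.4 CPM. In allogeneic fibroblasts it read 29.0, 13.0 and 11.9 CPM, against 27.04 CPM, with 21 cells in replicate 1. Allografts join cells of genetically different mice of unnamed strains, and the part of genotype in the ligand levels was not tested. Raet1d was the only gene tested among the 6 other ligands listed, of which the deposited matrices hold 2 symbols. It was lower in dendritic cells than in macrophages (-3.17 ± 1.03, edgeR adjusted p = 0.0371, where 28.7% of genes passed), on 1 UMI in allogeneic dendritic cells. In monocytes Raet1d was lower than in macrophages too (-0.83 ± 0.22, edgeR adjusted p = 0.0356, where 17.4% of genes passed).

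H60b was close to the limit of detection, with 4, 4 and 8 UMIs in all kept cells of allogeneic replicates 1, 2 and 3 and 52 UMIs in the isogeneic library, 36 of them in endothelial and stromal cells. It passed the expression filter in no comparison, so no member count includes it. H60c had 2, 2 and 0 UMIs, against 1.

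Over all fits, 4 of the 5 members entered the comparisons of macrophages, monocytes, endothelial cells, fibroblasts and all T cells, and 2 of 5 those of dendritic cells and neutrophils. The members in macrophages and the Klrk1 of monocytes are given without a test between grafts, and no other member passed. Allogeneic fibroblasts had 0, 2 and 25 Klrk1 UMIs in replicates 1, 2 and 3. Leaving out replicate 1 or 2, as given next, thus keeps the library that held most of them. In fibroblasts Klrk1 rested on 27 UMIs in allografts and 4 in the isograft (log2 change 4.29 ± 1.45, edgeR adjusted p = 0.199, where 2.4% of 14434 genes passed), and it passed without replicate 1 (0.0490) and without replicate 2 (0.00454). Endothelial Klrk1, at 8.93, 4.45 and 2.83 CPM against 0.927 CPM, had a log2 change of 2.52 ± 1.00 (adjusted p = 0.218). In macrophages 7.54% of 14638 genes passed (1103 genes), and 7302 genes passed without replicate 3.

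**Figure D4:**
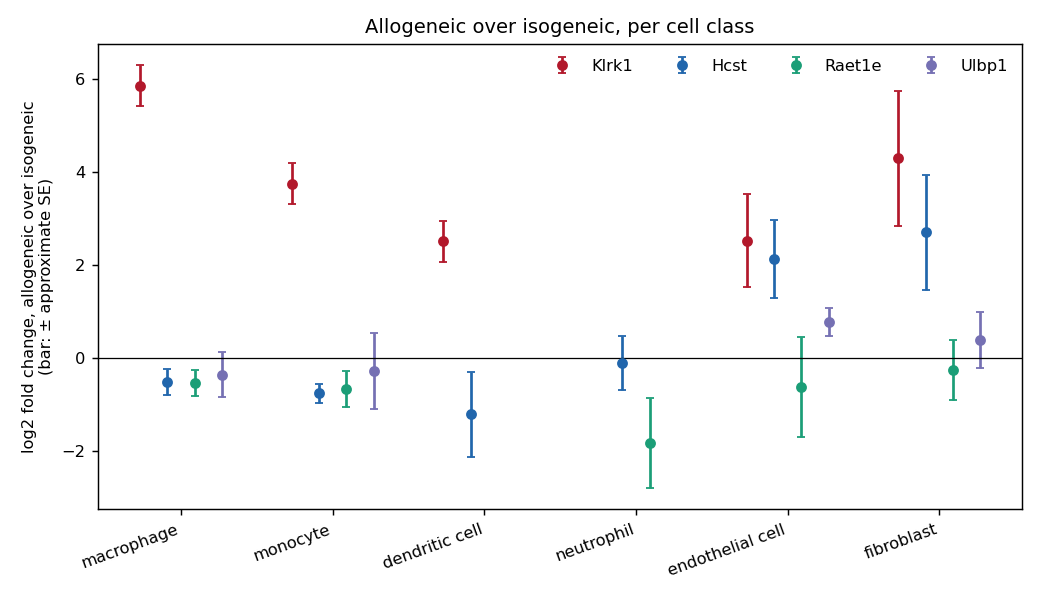
Log2 fold change, allogeneic over isogeneic (vertical axis), of each member tested in 6 cell classes, as the edgeR estimate with its approximate SE. Klrk1 lies above 0 in every class shown for it, from 2.50 to 5.86, while Hcst lies below 0 in macrophages, monocytes, dendritic cells and neutrophils and above 0 in endothelial cells and fibroblasts.

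Of the genes around the receptor, several cytokine inputs differed between grafts. The lists were chosen with earlier results of these data known, so their adjusted p-values are descriptive, above all in macrophages. In macrophages 4 of 10 genes rose and 0 fell (median log2 change 1.22, against -0.01 over all genes, of which 7.54% passed): Il15ra, which presents interleukin-15, by 3.96 ± 0.23 (edgeR adjusted p = 0.00502), Il2rg, the common cytokine receptor chain, by 2.90 ± 0.25 (0.00845), Il21r by 1.68 ± 0.25 (0.0245) and Il12b, an interleukin-12 subunit, by 3.93 ± 0.68 (0.0343). In monocytes, where 2.07% of all genes passed, 2 of 10 rose, Il15ra by 3.14 ± 0.31 (0.0143) and Il2rg by 2.25 ± 0.27 (0.0254). Endothelial cells (4.24% of all genes) had 1 of 9, the cytokine Il15 itself (2.48 ± 0.45, 0.0328), fibroblasts (2.4%) 1 of 9, Il15ra (3.18 ± 0.44, 0.000728), and neutrophils (3.75%) 1 of 5, Il2rg (2.92 ± 0.78, 0.0362). None of 9 passed in dendritic cells or in all T cells. None of 12 adaptor and signalling genes passed in macrophages or monocytes (median 1.05 and 0.59), and in fibroblasts 1 of 11 did, Tyrobp (2.10 ± 0.50, 0.0393). Tyrobp averaged 65.7 CPM in allograft fibroblasts, against 2124 CPM in allograft macrophages, and the part of myeloid RNA in its change was not tested. Among the lectin receptors of the cluster, 1 of 6 tested passed in macrophages, Klri1 (7.55 ± 1.24, 0.0304), whose partner chain in NK cells is Klre1. Of the T and NK transcripts in macrophages, 3 of 20 rose, Ccl5, Gzmb and Cd3e, with a median of 4.76.

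The same lists were counted between classes of the allografts. In CD8 against CD4 T cells, where 21.9% of all genes passed, all 4 lectin receptors tested rose, Klrd1 by 2.24 ± 0.12 (edgeR adjusted p = 2.23e-08), and with it Klrc1 (3.28 ± 0.28, 1.84e-06), Klrc2 (3.12 ± 0.26, 1.43e-06) and Klre1 (3.35 ± 0.34, 8.96e-06), while 1 signalling gene rose and 4 of 11 fell. In NK against CD8 T cells, where 21.6% of all genes passed, 6 of 8 lectin receptors rose, but Klrb1c and Klre1 were among the gating genes of NK cells and are no finding. Tyrobp, the alternative adaptor of the receptor, was higher in NK cells by 4.57 ± 0.22 (6.63e-08), and Syk, a kinase that acts below it, by 4.28 ± 0.31 (1.53e-06). Dendritic cells, in a comparison where 28.7% of all genes passed, exceeded macrophages in 3 of 4 lectin receptors, Klrd1 (3.60 ± 0.45, 9.59e-05), Klri1 (4.38 ± 0.38, 5.36e-06) and Klri2 (4.79 ± 0.65, 0.000180), while 5 of 11 signalling genes were lower, among them Tyrobp (-1.31 ± 0.16, 6.48e-05) and Syk (-0.98 ± 0.16, 0.000681).

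Likeness to each member was measured as Pearson's r of log2(CPM + 1) over 47 sums of a class in a library, from 13 classes, which share libraries and depth. Klrk1 was most like Runx3 (r = 0.841), Cd226, an activating receptor (0.799), and Adgrg5 (0.797). Hcst was most like Rac2, a GTPase of blood cells (0.919), Arhgap45 (0.914) and Rab37 (0.907). Ulbp1 was most like Cntln (0.780), Lrrcc1 (0.758) and Tmem39b (0.756), and Raet1e like Gm48678 (0.719), Tnfrsf26 (0.717) and Gm44686 (0.712). The highest value for H60b, 0.526 with Klrg1, rests on few counts.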

How the data were processed

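Single-cell libraries were made with a 3' droplet kit, per the labels' protocols. Cell Ranger 3.1.0 and mm10 are named in the submitters' processing notes, and version 6.1.0 in the matrix headers. Which made the values, and whether strand was used, are not given in the sources used here. The authors deposited raw UMI counts per gene and barcode, not normalized. From these, cells with at least 500 UMIs, 300 genes and at most 20% mitochondrial UMIs were kept, and the highest Scrublet scores were removed at 0.8% per 1000 barcodes (246, 552 and 331 allogeneic and 1045 isogeneic cells); Scrublet's automatic threshold would have marked 0, 0 and 2, and 1574. Median UMIs per cell were 7477, 5790 and 5194.5, and 5997.

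Cell classes were gated on raw UMIs. T cells had at least 2 Cd3 UMIs with a T cell receptor UMI and were split by Cd4 and Cd8. NK cells had at least 2 NK genes (Klrb1c and Klre1 among them). Mononuclear phagocytes had at least 4 genes, and were macrophages with C1q at 0.1% or more of a cell's UMIs. Those with less C1q and no dendritic gate were monocytes if they had at least 2 of Ly6c2, Plac8, Ccr2, Vcan, Chil3 and F10. The remaining ones formed a class of other mononuclear phagocytes. Dendritic and endothelial cells had at least 3 genes, fibroblasts 4. Cells in gates of more than 1 lineage entered no class. No member is in a gate. Counts were summed per library and class with at least 20 cells and fitted with edgeR 4.0.16 (TMM, default expression filter, quasi-likelihood F-test, Benjamini-Hochberg over all genes tested, 0.05). With 1 isogeneic library, its variation was assumed equal to that of the allogeneic libraries. Classes within allografts were compared with library as block, since both classes come from the same library. Each SE is the log2 change over the square root of F and is approximate. Intervals and floors (3 counts) cover counting error only. Alternatives were DESeq2 1.42.0, its size factors, no expression filter, doublets kept, a 10% mitochondrial limit, stricter gates, C1q at 0.2% or 0.05%, joined monocytes, macrophages without T and NK transcripts, and each library left out. The fits were also run on simulated counts, in which the isogeneic library was given the variation of the allogeneic ones. That simulation therefore cannot check whether their variation was equal. The genes, lists and gates were chosen with earlier results of these data known. Of each list, at most 4 passing genes with the smallest adjusted p are named. The class of all T cells, the list without Ccl5, the RUNX motif and the dendritic cell and Nos2 subsets were chosen after values had been seen. Coordinates are from GENCODE M21, promoters from RefSeq.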

Additional observations from a re-analysis of the deposited data

Results flagged for a closer look

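Hcst stood above the isogeneic level in every allogeneic library in endothelial cells and below it in every allogeneic library in 5 other classes. The difference in log2 change, endothelial cells minus the other class, was 3.49 for all T cells, 2.65 for macrophages, 2.89 for monocytes, 3.34 for dendritic cells and 2.24 for neutrophils. These differences were not tested, and the isogeneic endothelial value rests on 6 UMIs. In fibroblasts the log2 change of Hcst was positive as well (2.70), with allogeneic replicate 1 at 0 UMIs in 21 cells.

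Klrk1 also appeared outside the classes compared. Cells that passed no gate averaged 125 CPM in the allogeneic libraries, against 4.98 CPM in the isogeneic one. Cells in gates of more than 1 lineage averaged 66.9 CPM, against 0.645 CPM. The barcodes of allogeneic replicate 1 below the UMI or gene minimum read 68.3 CPM on 32 UMIs, against 0 UMIs in the isogeneic library, where the interval of that zero reached 51.6 CPM.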

How the results depend on the processing

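Klrk1 in allograft macrophages averaged 77.7 CPM and between 67.7 and 85.4 CPM under all 9 alternatives, among them doublets kept, other C1q limits, cells without T and NK transcripts and each library left out. Of 381 recomputed member changes, 344 kept their direction and side of the threshold (or moved by less than their SE), 16 newly passed, 9 no longer passed, 4 untested ones moved by more than their SE and 8 changed sign, none of them past the threshold before. The sign changes were Hcst in neutrophils without replicate 1 (0.127, range -0.241 to 0.127), Raet1e in NK against CD8 T cells without the replicate block (0.0189), Raet1e in fibroblasts with stricter gates (0.25), Raet1e in dendritic cells against macrophages without replicate 2 (0.359, range -0.971 to 0.359), Ulbp1 in monocytes with stricter gates (0.45) and without replicate 3 (range -0.610 to 0.0188), and Ulbp1 in dendritic cells against macrophages without replicate 1 or 2 (range -0.125 to 1.05). Counts of passing genes depended on the libraries: leaving out each allogeneic library gave 0 to 366 for all T cells (main 0), 175 to 7302 for macrophages (1103), 127 to 3079 for monocytes (259), 102 to 204 for dendritic cells (34), 118 to 300 for neutrophils (158), 472 to 3152 for endothelial cells (515) and 535 to 842 for fibroblasts (346). Within allografts the ranges were 575 to 2901 for CD8 against CD4 T cells (2168), 719 to 3304 for NK against CD8 T cells (1990), 524 to 3236 for monocytes against macrophages (2179) and 1841 to 3152 for dendritic cells against macrophages (3040). DESeq2 called 90 genes in all T cells, 1670 in macrophages, 642 in monocytes, 918 in CD8 against CD4 T cells, 1255 in NK against CD8 T cells and 971 in monocytes against macrophages. With no expression filter the counts were 40 in all T cells, 1953 in macrophages, 602 in monocytes, 292 in dendritic cells, 1270 in endothelial cells and 1026 in fibroblasts. Macrophages with 0 T and NK UMIs gave 302, from fewer cells. With no replicate block, the counts fell to 218 for CD8 against CD4 T cells, 657 for NK against CD8 T cells and 21 for monocytes against macrophages. Causes were not tested. No paired analysis was possible because the allogeneic and isogeneic groups share only replicate number 2. The stricter gate left too few dendritic cells for a fit. Classes of few cells or UMIs, the ligands above all, and the lone isogeneic library limit what can be told.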

Other observations

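Nos2 encodes the inducible nitric oxide synthase of activated macrophages. Allogeneic macrophages with a Nos2 UMI read 71.6, 56.8 and 89.4 CPM of Klrk1, against 75.8, 69.4 and 103 CPM in those without one, and monocytes 64.3, 61.4 and 81.5 CPM, against 103, 73.3 and 118 CPM. Klrk1 was thus lower beside a Nos2 UMI in 3 of 3 libraries in both classes, from cells with more UMIs in each case, and the difference was not tested.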
